A study of Mus musculus with 20 samples.

Results

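The genes described here encode the proteins of the mitochondrial ribosome and were taken as every row of the count table whose symbol begins with Mrpl or Mrps followed by a number, with or without a letter from a to d. The rule found 78 of the 29671 genes in the table, 49 named for the large subunit (Mrpl) and 29 for the small subunit (Mrps), and left out 4 rows whose symbols carry the pseudogene ending -ps. RNA was sequenced from punches of 1.2 mm taken on both sides of the amygdala of 20 behaviourally naive male C57B6 mice at postnatal day 84. The stock came from Taconic and was bred in house. The 4 groups of 5 mice were F1 and F2 generations, each from a lineage with chronic unpredictable stress (stress) and from one without it (no-stress). The labels name no treatment of the F1 and F2 mice themselves. They also give no litter, parent of descent or sequencing batch, so littermates within a group would be less independent than tests with n = 5 assume.

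Mitochondrial ribosomes translate the few messenger RNAs that the mitochondrial genome encodes, all of them for subunits of the respiratory chain and ATP synthase. Their ribosomal RNAs are made inside the organelle, whereas every one of their proteins is encoded in the nucleus, made on cytosolic ribosomes and imported. Some of these proteins have counterparts in bacterial ribosomes and others exist in mitochondria alone. The symbols do not follow the structure in each case: the proteins of Mrps18a and Mrps30 sit in the large subunit, and that of Mrps36 belongs to the 2-oxoglutarate dehydrogenase complex.

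Most of the promoters examined hold at least 1 of 3 known motifs of nuclear factors that control mitochondrial biogenesis. RefSeq windows on GRCm38.p6, from 250 bases before to 50 bases after the annotated start, were matched by symbol to 69 of the 78 genes. They were searched on both strands for the NRF1 consensus of 10 letters, CCGGAAG (the ETS core bound by GABP) and AAGATGGCG (YY1), and the last 2 can overlap each other in 1 stretch. CCGGAAG was found in 26 of the 69 genes (37.7%) and in 9.93% of the 27025 genes of the promoter table. The NRF1 consensus was found in 13 of 69 (18.8%) against 5.19%, and AAGATGGCG in 8 of 69 (11.6%) against 1.64%. Any of the 3 was found in 41 of 69 genes (59.4%) against 15.1%. The comparison was not matched for GC content. By subunit, CCGGAAG was in 15 of 43 large and 11 of 26 small subunit genes, the NRF1 consensus in 10 and 3, and AAGATGGCG in 4 and 4. These are matches of letters, not measured sites of binding. The stretches below are shown for Mrps18c and Mrps9, which passed the test in the F2 comparison, for Mrps11, the next small subunit gene by p in that comparison, and for Mrpl49, whose groups did not overlap there. Capitals mark the match: CCGGAAG on the opposite strand in Mrps18c, the NRF1 consensus on the opposite strand in Mrps9 and AAGATGGCG on the opposite strand in Mrps11, while Mrpl49 holds none of the 3. Each stretch begins 250 bases before the RefSeq start and ends 15 bases after the start of the RefSeq or GENCODE gene model, whichever lies first. They lie at chr5:100798509-100798641 (plus strand), chr1:42850983-42851247 (plus strand), chr7:78782881-78783133 (plus strand) and chr19:6057771-6058005 (minus strand) of GRCm38.p6, in the order given. The whole Mrps11 stretch also lies within the gene Mrpl46 (chr7:78775236-78783531, minus strand), so its match reads along the strand of Mrpl46.
Mrps18c: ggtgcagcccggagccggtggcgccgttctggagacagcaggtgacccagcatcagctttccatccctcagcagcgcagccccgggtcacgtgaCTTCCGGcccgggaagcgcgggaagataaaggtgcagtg
Mrps9: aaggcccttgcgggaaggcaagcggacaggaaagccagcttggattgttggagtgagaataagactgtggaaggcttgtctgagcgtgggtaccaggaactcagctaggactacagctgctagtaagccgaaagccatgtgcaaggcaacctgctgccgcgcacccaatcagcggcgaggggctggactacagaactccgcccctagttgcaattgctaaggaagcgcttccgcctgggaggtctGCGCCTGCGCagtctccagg
Mrps11: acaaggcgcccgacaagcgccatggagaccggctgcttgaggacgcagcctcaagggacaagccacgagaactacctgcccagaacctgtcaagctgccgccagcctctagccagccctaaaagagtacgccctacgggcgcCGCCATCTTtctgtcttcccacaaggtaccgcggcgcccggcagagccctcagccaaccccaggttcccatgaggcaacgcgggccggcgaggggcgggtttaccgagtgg
Mrpl49: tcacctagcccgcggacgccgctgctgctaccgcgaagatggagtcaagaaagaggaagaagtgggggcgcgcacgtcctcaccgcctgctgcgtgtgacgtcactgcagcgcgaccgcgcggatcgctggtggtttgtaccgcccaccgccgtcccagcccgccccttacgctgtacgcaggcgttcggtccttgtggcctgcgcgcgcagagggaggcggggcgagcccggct

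All 78 genes passed the filter on low counts, among 16727 genes tested. Library totals ran from 13654890 to 13714805 counts, a common total set by a step that the sources used here do not describe, so the depth before it is not known. Mean counts per library ran from 66.25 (Mrpl34) to 859.85 (Mrpl3) in the large subunit and from 65.70 (Mrps28) to 653.45 (Mrps17) in the small subunit. The median coefficient of variation within groups was 10.97% for large (6.70 to 22.4%) and 11.1% for small subunit genes (7.40 to 18.6%), and 16.3% over all genes tested, without matching for count level. Markers of neurons, glia and blood vessels were detected in all libraries. Levels are given as CPM, the count scaled by library size with edgeR's TMM factors. Summed over 8 genes that mark medium spiny neurons of the striatum, the level ran from 539 to 5358 CPM across libraries.

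The 2 subunits were expressed over similar ranges. Per kilobase of transcript, the median level was 13.6 CPM for the large subunit, with genes from 3.01 to 37.6, and 10.9 CPM for the small subunit, with genes from 3.54 to 38.6. The highest large subunit levels per kilobase were those of Mrpl20 (37.6 ± 4.95), Mrpl42 (36.1 ± 3.31) and Mrpl33 (32.8 ± 4.18), each given with the SD within groups over 20 libraries. Mrpl20 and Mrpl33 have bacterial counterparts and Mrpl42 is specific to mitochondria, and the differences among these 3 levels were not tested. The lowest were Mrpl57 (3.87 ± 0.49), Mrpl47 (3.66 ± 0.44) and Mrpl17 (3.01 ± 0.27). Among the genes named for the small subunit, Mrps21 (38.6 ± 6.60), Mrps33 (33.0 ± 4.09) and Mrps18a (32.0 ± 3.24) were highest, and the differences among them were not tested. The protein of Mrps18a, like that of Mrps30, sits in the large subunit. The lowest by the same naming were Mrps30 (5.43 ± 0.58), Mrps25 (3.84 ± 0.42) and Mrps35 (3.54 ± 0.31). The order depended on which length was used. Per kilobase of coding sequence the median was 33.5 CPM for the large and 31.5 CPM for the small subunit, and Mrpl17 moved from rank 49 of the 49 large subunit genes to rank 15.

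**Figure D1:**
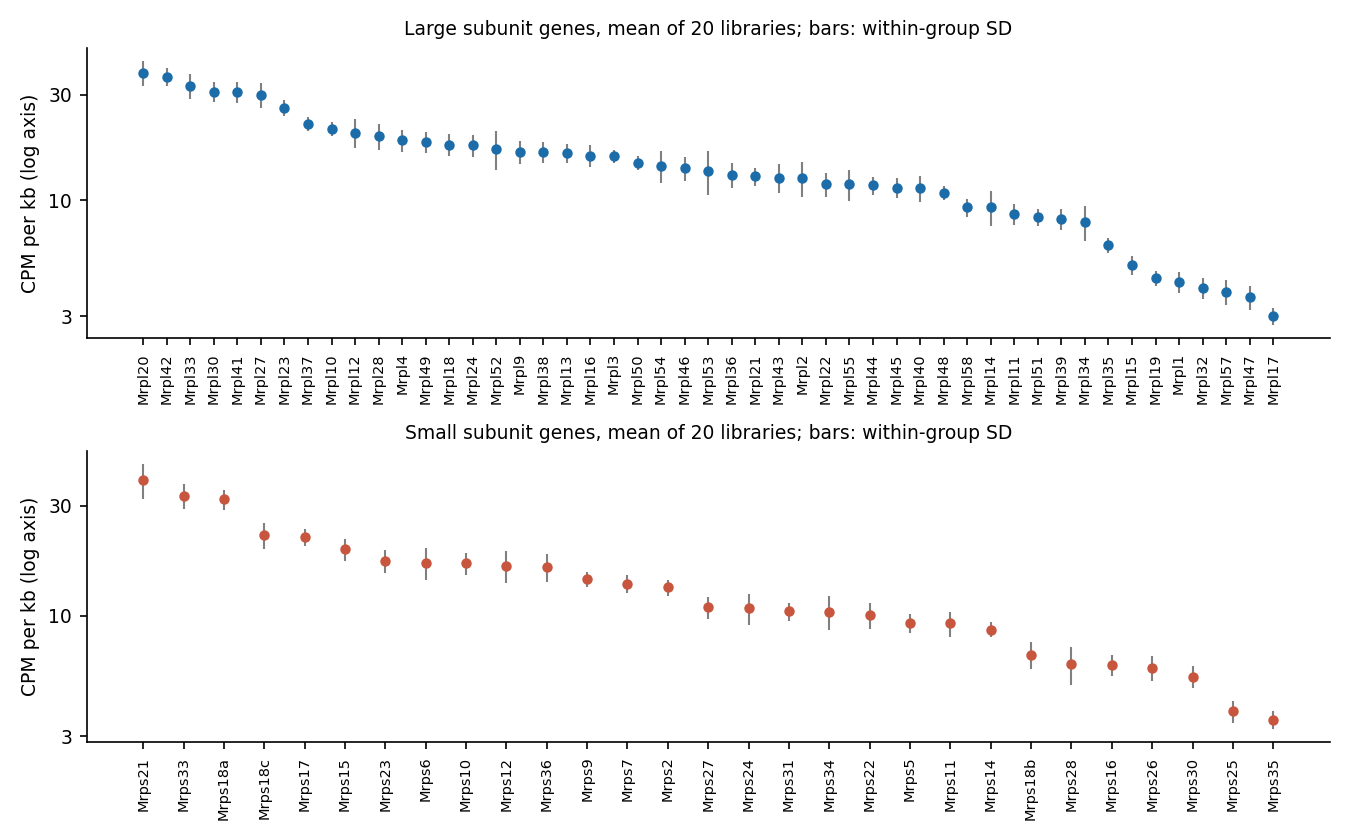
Level of each mitochondrial ribosomal protein gene per kilobase of transcript on a log axis, ordered within the large (top, 49 genes) and small (bottom, 29 genes) subunit; points are means of 20 libraries and bars the SD within groups. Both subunits span about the same range, from 3.01 to 37.6 and from 3.54 to 38.6 CPM per kilobase.

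Several of these values share reads with other genes or could do so. The coding sequence of 17 of the 78 genes matches a processed pseudogene at 95% identity or more over at least 100 bases. That of Mrpl23 is identical to Mrpl23-ps1 (247.5 and 210.0 counts on average), and Mrps33 matches Gm5776 at 99.7% (498.5 and 130.1 counts). Exons of 28 genes overlap a gene on the opposite strand, and those of 8 genes overlap one on the same strand. Because the strand setting of the counting is not given in the sources used here, such pairs cannot be told apart by these counts. Among the genes named below, Mrpl13 overlaps Mtbp by 330 bases, Mrpl14 overlaps Tmem63b by 106 bases and Mrps11 overlaps Mrpl46 by 173 bases, each on the opposite strand. Mrps18c overlaps Gm43511 by 250 bases on the same strand, where Gm43511 averaged 6.60 counts. The mean counts of Mtbp and Tmem63b were 25.9 and 1365. On the same strand, Mrps24 overlaps Urgcp by 226 bases (759.6 counts), Mrpl3 overlaps Gm38077 by 248 bases (121 counts) and Mrpl33 overlaps Gm43809 by 261 bases (56.5 counts). On the opposite strand, Mrpl49 overlaps Syvn1 by 91 bases, Mrps30 overlaps B430218F22Rik by 623 bases, Mrps25 overlaps Nr2c2 by 4590 bases, and Mrpl47 overlaps Actl6a and Ndufb5.

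In F1, no mitochondrial ribosomal protein gene passed the test, and most had a small negative value (stress minus no-stress). Of the 78 genes 71 had a negative log2 fold change, 45 of 49 in the large and 26 of 29 in the small subunit, beside 49% of all genes tested. The median log2 fold change was −0.15 in the large subunit, −0.10 in the small subunit and 0.0042 over all genes. No gene was called at an adjusted p under 0.05 (edgeR's quasi-likelihood test, Benjamini-Hochberg over 16727 genes), beside 0% of all genes. At an unadjusted p under 0.05 there were 14 of the 78 genes, all lower, and 1030 of the 16727. DESeq2 and limma-voom also called none of the 78.

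The largest F1 difference was that of Mrpl14, a large subunit protein with bacterial and cytosolic counterparts. It stood at 6.29, 6.27, 7.24, 7.97 and 6.57 CPM in the 5 F1 no-stress mice and at 4.08, 3.98, 4.36, 5.51 and 5.53 CPM in the 5 F1 stress mice. Every stress lineage mouse was below every no-stress lineage mouse. The log2 fold change was −0.55 (SE 0.17, adjusted p = 0.739 with edgeR). Mrpl13, likewise a conserved large subunit protein, stood at 19.6, 22.4, 23.9, 23.8 and 19.95 CPM in F1 no-stress mice and at 17.9, 17.6, 17.3, 16.3 and 19.2 CPM in F1 stress mice. Its groups did not overlap either, and the log2 fold change was −0.31 (SE 0.10, adjusted p = 0.739 with edgeR). These were the only 2 of the 78 genes whose F1 groups did not overlap with the stress lineage lower, beside 0.568% of all genes. None of the 78 was wholly higher, beside 0.67%.

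The other F1 genes with the smallest p had log2 fold changes of −0.25 (Mrps14), −0.29 (Mrps16), −0.32 (Mrps24) and −0.25 (Mrpl42). Mrps14, a conserved protein of the small subunit, averaged 28.6 ± 1.23 CPM in no-stress and 24.1 ± 2.16 CPM in stress mice (SD, n = 5). Mrps16 averaged 16.9 ± 2.15 and 13.8 ± 1.72 CPM, and Mrps24 11.5 ± 1.797 and 9.16 ± 1.77 CPM. Mrpl42 averaged 25.7 ± 1.78 and 21.7 ± 1.84 CPM. The groups overlapped in all 4 and none of the 4 passed the test. The 7 genes with a positive F1 value were Mrpl1, Mrpl38, Mrpl55, Mrpl58, Mrps5, Mrps10 and Mrps23, chosen after their values were seen, and the highest was Mrps5 at 0.096.

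Other parts of the translation system differed in direction. The 13 mitochondrially encoded mRNAs were all negative in F1 (median −0.26) and so were both mitochondrial ribosomal RNAs (−0.33), with none passing the test. Poly-A selected libraries sample these RNAs indirectly, and mt-Rnr2 averaged 1591 ± 125 CPM in F1 no-stress and 1262 ± 204 CPM in F1 stress mice (SD, n = 5, adjusted p = 0.739 with edgeR). Of 84 cytosolic ribosomal protein genes tested, 82 were negative (median −0.21) and none passed. The enzymes and factors around the mitochondrial ribosome, and the regulators of biogenesis, stayed near the median of all genes. Assembly factors had 11 of 24 negative (median 0.023), translation factors 6 of 15 (0.031), mitochondrial tRNA synthetases 10 of 17 (−0.018) and regulators of mitochondrial biogenesis 4 of 8 (0.0087). No gene of these 4 lists passed the test in F1, and the smallest p among assembly factors was that of Gtpbp10, a GTPase of large subunit assembly (10.2 ± 1.19 and 8.41 ± 0.63 CPM, adjusted p = 0.739 with edgeR).

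All 8 striatal medium spiny neuron markers were also negative in F1 (median log2 fold change −0.77) and none passed the test with edgeR (1 at an unadjusted p under 0.05, smallest adjusted p = 0.739), with a summed level from 1441 to 4797 CPM in F1 no-stress and from 1140 to 2711 CPM in F1 stress mice. Its part in the lower ribosomal protein values was not tested. In bulk tissue, fewer cells of a type and less RNA per cell cannot be told apart. Without each of the 20 libraries in turn, the F1 median stayed between −0.18 and −0.11 for the large subunit and between −0.16 and −0.077 for the small subunit.

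**Figure D2:**
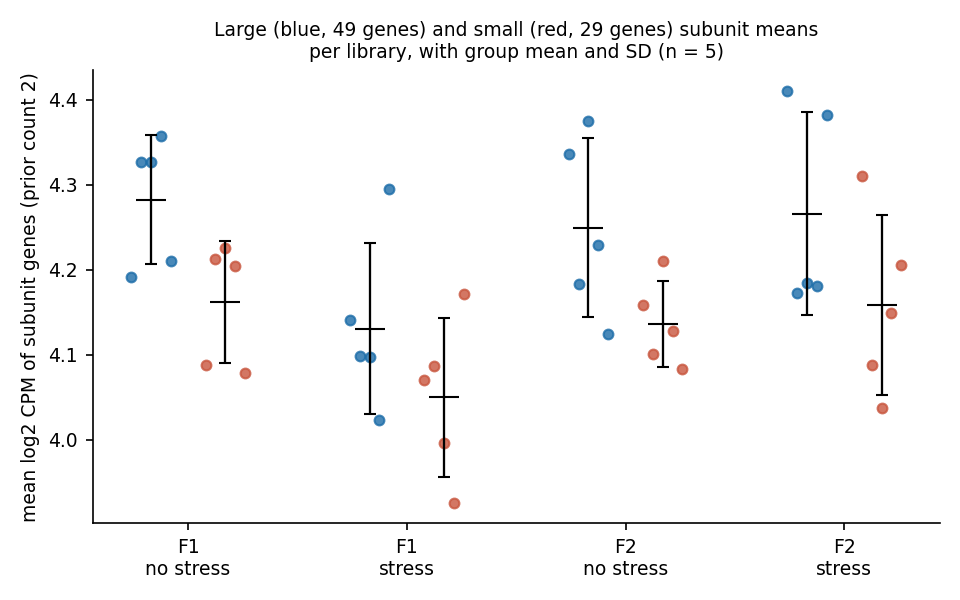
Mean log2 CPM of the large subunit genes (blue) and small subunit genes (red) in each library, by group; black bars give the group mean and SD of 5 mice. The F1 stress lineage has the lowest mean for both subunits, and its libraries overlap those of other groups.

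The difference between the 2 subunits overlapped across all groups. The mean log2 CPM of the large subunit genes was 4.28 ± 0.08 in F1 no-stress, 4.13 ± 0.10 in F1 stress, 4.25 ± 0.10 in F2 no-stress and 4.27 ± 0.12 in F2 stress mice (SD, n = 5). The small subunit followed with 4.16 ± 0.07, 4.05 ± 0.09, 4.14 ± 0.05 and 4.16 ± 0.11. These means are not scaled for length, so only their change between groups can be read. The large minus small difference was 0.12 ± 0.02, 0.08 ± 0.04, 0.11 ± 0.06 and 0.11 ± 0.06 in the same order, with individual mice between 0.011 and 0.18. The values of all 4 groups overlapped, also with Mrps18a and Mrps30 counted as large and Mrps36 left out (0.14, 0.10, 0.12 and 0.12). Together the 78 genes took 0.163 ± 0.007% of counts in F1 no-stress, 0.153 ± 0.009% in F1 stress, 0.160 ± 0.008% in F2 no-stress and 0.166 ± 0.013% in F2 stress mice.

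In F2, 3 of the 78 genes passed the test, with no common direction. Mrps18c was higher and Mrps9 and Mrpl4 were lower in the F2 stress than in the F2 no-stress lineage. This is 3.85% of the 78 genes beside 7.92% of all 16727 (1 higher beside 2.64%, and 2 lower beside 5.28%), a share that does not exceed the background. The median log2 fold change was 0.057 in the large subunit, −0.0039 in the small subunit and 0.0013 over all genes, with 44 of 78 positive.

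Mrps18c encodes one of the related S18 proteins of the mitochondrial ribosome, of which Mrps18a and Mrps18b are the others. The gene (ENSMUSG00000016833) lies at chr5:100798627-100804471 of GRCm38 on the plus strand. It stood at 11.5, 9.85, 11.5, 11.9 and 14.3 CPM in F2 no-stress mice and at 19.6, 16.1, 14.6, 13.1 and 17.4 CPM in F2 stress mice. Only the lowest stress lineage mouse lay below the highest no-stress lineage mouse. The log2 fold change was 0.45 (SE 0.12, adjusted p = 0.0254 with edgeR). In F1 the order of the means was the opposite, with 13.4, 15.7, 17.4, 15.4 and 16.1 CPM in no-stress and 16.1, 13.998, 12.4, 11.7 and 13.4 CPM in stress mice.

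Mrps9 encodes a small subunit protein with counterparts in bacterial and cytosolic ribosomes (ENSMUSG00000060679, chr1:42851233-42905683, plus strand). It stood at 24.3, 25.3, 20.9, 21.4 and 25.8 CPM in F2 no-stress mice and at 18.3, 18.5, 19.2, 16.5 and 20.2 CPM in F2 stress mice. The 2 groups did not overlap, and the log2 fold change was −0.35 (SE 0.08, adjusted p = 0.0171 with edgeR). It was the only one of the 78 genes wholly lower in F2, beside 2.36% of all genes. Mrpl49, a protein specific to mitochondria, was the only one wholly higher, beside 2.25%, with 29.9 ± 3.02 CPM in F2 no-stress and 35.4 ± 2.10 CPM in F2 stress mice (SD, n = 5, adjusted p = 0.127 with edgeR).

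Mrpl4 encodes a conserved protein of the large subunit (ENSMUSG00000003299, chr9:21002738-21008839, plus strand). It stood at 33.8, 31.6, 27.2, 25.7 and 25.0 CPM in F2 no-stress mice and at 21.96, 20.02, 21.6, 20.9 and 25.5 CPM in F2 stress mice. The groups overlapped by 1 mouse, and the log2 fold change was −0.38 (SE 0.10, adjusted p = 0.027 with edgeR). In a fit that carried an offset for how each library varied with GC content and transcript length, the value for Mrpl4 was 0.012 (adjusted p = 0.966 with edgeR). With the same offset Mrps18c was at 0.36 (adjusted p = 0.165) and Mrps9 at −0.39 (adjusted p = 0.0668), and no mitochondrial ribosomal protein gene passed, beside 0.0479% of all genes. When the F1 libraries were left out of the fit none of the 78 and none of all genes passed. The count was 0 without F2 stress replicate 11 or F2 no-stress replicate 17, 1 without F2 stress replicate 12 or F2 no-stress replicate 16, and 6 without F2 stress replicate 14 or 15. Calls over all genes in these leave-out fits are not given here, so no share of all genes stands beside them.

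**Figure D3:**
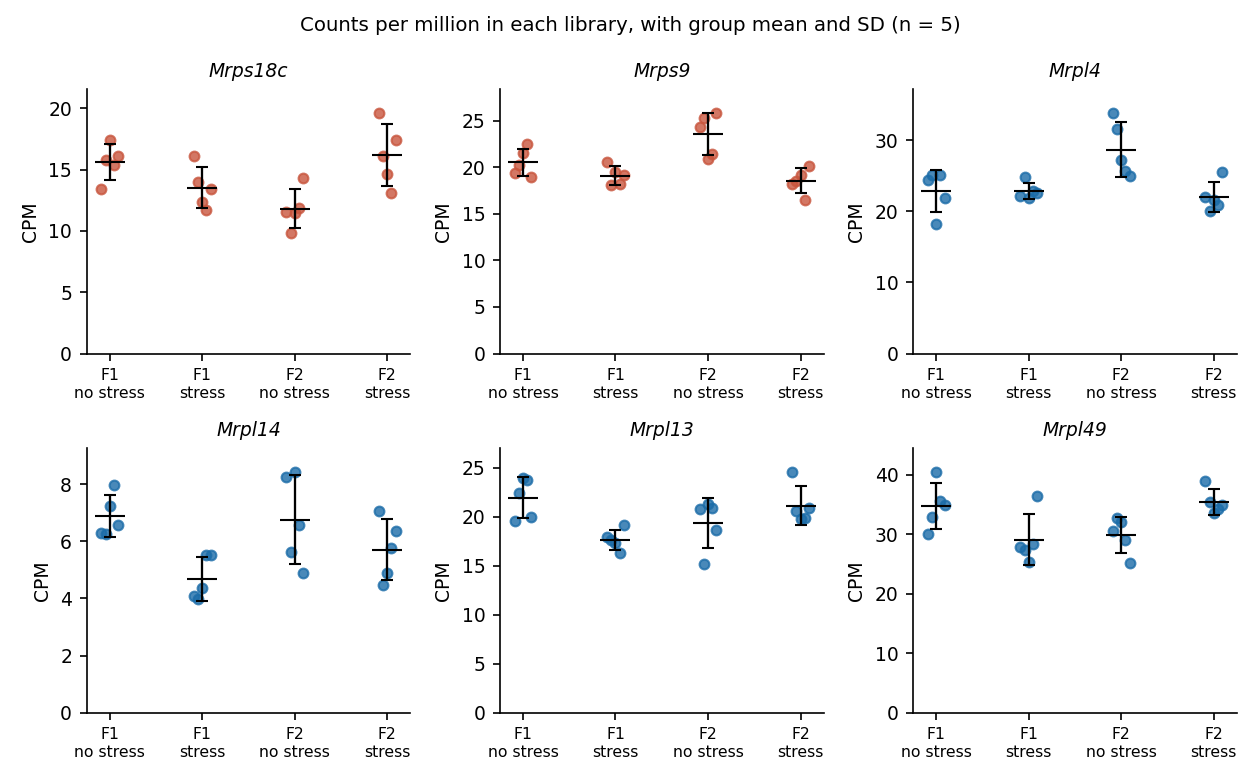
CPM of 6 genes in each library by group, with the group mean and SD of 5 mice; small subunit genes in red and large subunit genes in blue, all axes starting at 0. In F2, Mrps9 and Mrpl4 are lower and Mrps18c is higher in the stress lineage, and in F1 the stress lineage values of Mrpl14 and Mrpl13 lie below all no-stress values.

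The F2 values of the 78 genes differed with the GC content of their transcripts. The 39 genes with the higher GC content, at or above 50.4%, had a median log2 fold change of −0.071 with 26 negative, and the 39 with the lower GC content a median of 0.12 with 8 negative. Across the 78 genes, which are not independent replicates, Spearman's rho between log2 fold change and GC content was −0.63. With the offset for GC content and length it was 0.26, the medians were 0.089 and 0.026, and 24 of the 78 genes changed sign. Mrpl4, at 60.1% GC, is among the richest of the 78 in GC, while Mrps9 has 49.7% and Mrps18c 47.3%. The libraries' own trends differed in the same comparison: the log2 deviation of the tenth of genes richest in GC minus that of the tenth poorest averaged 0.35 ± 0.28 in F2 no-stress and −0.20 ± 0.26 in F2 stress mice (SD, n = 5). In F1 these averages were −0.07 ± 0.23 and −0.07 ± 0.14, and rho with GC content was −0.12. The libraries' trend with transcript length, long minus short, averaged −0.06 ± 0.12 in F1 no-stress and 0.08 ± 0.15 in F1 stress mice. The rho between F1 log2 fold change and transcript length was 0.32, and 0.13 with the offset. Median transcript length was 1316 bases in the large and 1197 in the small subunit, beside 2822.5 over all genes tested. With the offset 68 of 78 genes were negative in F1 (median −0.12 in the large and −0.095 in the small subunit, −0.019 over all genes).

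**Figure D4:**
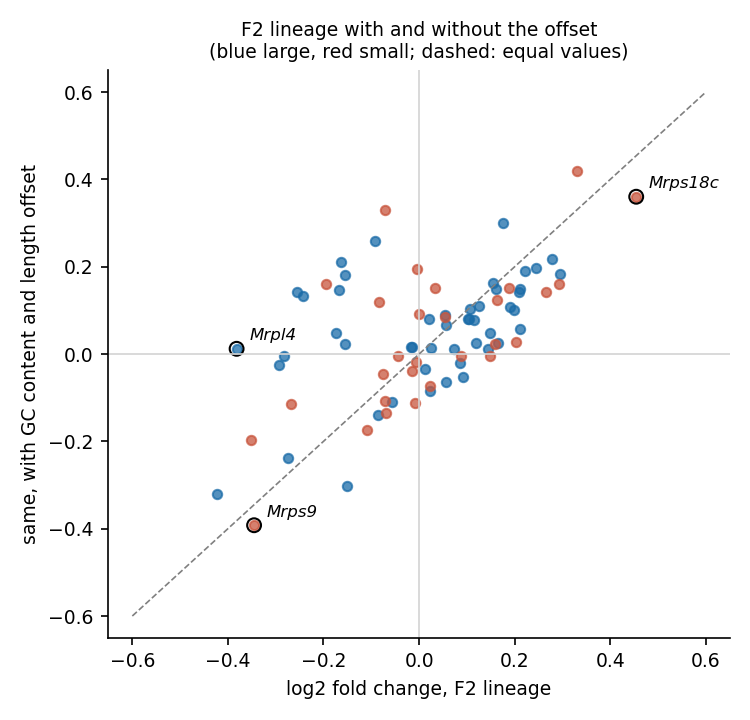
Log2 fold change of the 78 genes between F2 stress and F2 no-stress lineages, without (x) and with (y) the offset for GC content and transcript length; the dashed line marks equal values and circles the 3 genes called without the offset. Mrpl4 moves from −0.38 to 0.012, while Mrps18c and Mrps9 stay near the line.

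The remaining F2 values with small p did not pass. Mrps11, a conserved small subunit protein, averaged 11.5 ± 0.93 CPM in F2 no-stress and 9.02 ± 1.83 CPM in F2 stress mice (SD, n = 5, adjusted p = 0.0771 with edgeR). Mrpl3, a conserved protein of the large subunit, averaged 58.6 ± 4.002 and 67.3 ± 5.73 CPM (adjusted p = 0.0788 with edgeR). Mrpl50, specific to mitochondria, averaged 28.7 ± 2.80 and 33.2 ± 1.66 CPM (adjusted p = 0.092 with edgeR). The genes whose symbols do not match their place had F2 log2 fold changes of −0.084 (Mrps18a), 0.27 (Mrps30) and 0.023 (Mrps36), none passing.

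Genes of mitochondrial translation, transcription and biogenesis were also called in F2, to be read beside the 7.92% of all genes called (2.64% higher and 5.28% lower). Among 17 mitochondrial tRNA synthetases 4 passed (23.5%), 3 lower and 1 higher. Of the lower ones, Sars2 fell by 0.81 on the log2 scale (8.07 ± 0.49 to 4.61 ± 0.57 CPM, SD, n = 5), Aars2 fell by 0.52, and Tars2 fell by 0.37. Their adjusted p-values with edgeR were 0.0056, 0.0201 and 0.0204. Among 24 assembly factors 2 passed (8.33%), a share near that of all genes: Mtg2, a GTPase of the large subunit, fell by 0.61 and Dhx30, an RNA helicase, fell by 0.27 (adjusted p = 0.0166 and 0.0297 with edgeR). Polrmt, the mitochondrial RNA polymerase, fell by 0.65 (adjusted p = 0.0155 with edgeR) and was the only one of 6 transcription genes to pass. Esrra, a nuclear receptor that drives mitochondrial genes, fell by 0.73 (adjusted p = 0.0492 with edgeR) and was the only one of 8 biogenesis regulators to pass. None of 15 translation factors, 13 mitochondrially encoded mRNAs, 2 mitochondrial rRNAs or 5 ribosomal proteins with other symbols (Dap3, Ptcd3, Aurkaip1, Chchd1 and Gadd45gip1) passed in F2 with edgeR. With the offset for GC content and length, Sars2 was at −0.41 (adjusted p = 0.106 with edgeR), Mtg2 at −0.45 (0.200), Polrmt at −0.20 (0.376), Aars2 at −0.089 (0.679), Tars2 at −0.19 (0.326), Esrra at −0.26 (0.536) and Dhx30 at −0.023 (0.908).

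The lineage difference itself differed between generations for 1 of the 78 genes. The interaction, the F2 log2 fold change minus the F1 one, was 0.66 for Mrps18c (SE 0.17, adjusted p = 0.0439 with edgeR). This is 1.28% of the 78 genes beside 2.52% of all genes (1 higher beside 0.837%, none lower beside 1.68%). The interaction was positive for 60 of the 78 genes, with a median of 0.20 in the large and 0.14 in the small subunit and −0.0052 over all genes. At an unadjusted p under 0.05 there were 17 large and 6 small subunit genes, and 3551 of the 16727. Mrpl4 (−0.38) and Mrps9 (−0.24) were negative among these large and small subunit genes, and the others were positive. After Mrps18c, the next by p were Mrps14 at 0.41, Mrpl49 at 0.50, Mrpl50 at 0.37 and Mrpl39 at 0.47 (adjusted p = 0.0568, 0.0588, 0.0653 and 0.0739 with edgeR), and none of these passed.

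Across the 78 genes, the F2 medians given above were smaller in size than the F1 medians in both subunits. Mrpl49, among the genes with the smallest p in the interaction, is given as an example and does not stand for all 78. It stood at 30.01, 32.9, 40.4, 35.6 and 35.0 CPM in F1 no-stress, 28.0, 27.4, 25.3, 28.5 and 36.5 CPM in F1 stress, 30.6, 32.7, 32.1, 29.04 and 25.2 CPM in F2 no-stress and 39.0, 35.4, 33.6, 34.2 and 35.0 CPM in F2 stress mice. The stress lineage was the lower group in F1, save for 1 mouse, and the higher group in F2. DESeq2 called 7 of the 78 genes, all higher, and 1211 of all genes, and limma-voom with library weights called 12, all higher, and 2449 of all genes. Both shares of the 78 were near those of all genes tested, whose direction in these 2 fits is not given here. The offset for GC content and length and the fit without a low-count filter called none of the 78. The call of Mrps18c had an adjusted p of 0.169 with the offset and was lost without any 1 of 14 of the 20 libraries: replicates 2, 3, 4 and 5 of F1 stress, 7, 8, 9 and 10 of F1 no-stress, 11, 12 and 13 of F2 stress and 16, 17 and 19 of F2 no-stress. Its value stayed in those fits between 0.58 and 0.70. With GC content and length entered, 64 of the 78 genes had a positive interaction and 10 changed sign (median 0.19 in the large and 0.16 in the small subunit, 0.059 over all genes). All 8 striatal markers were positive in the interaction as well (median 0.59), and their part in it was not tested.

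**Figure D5:**
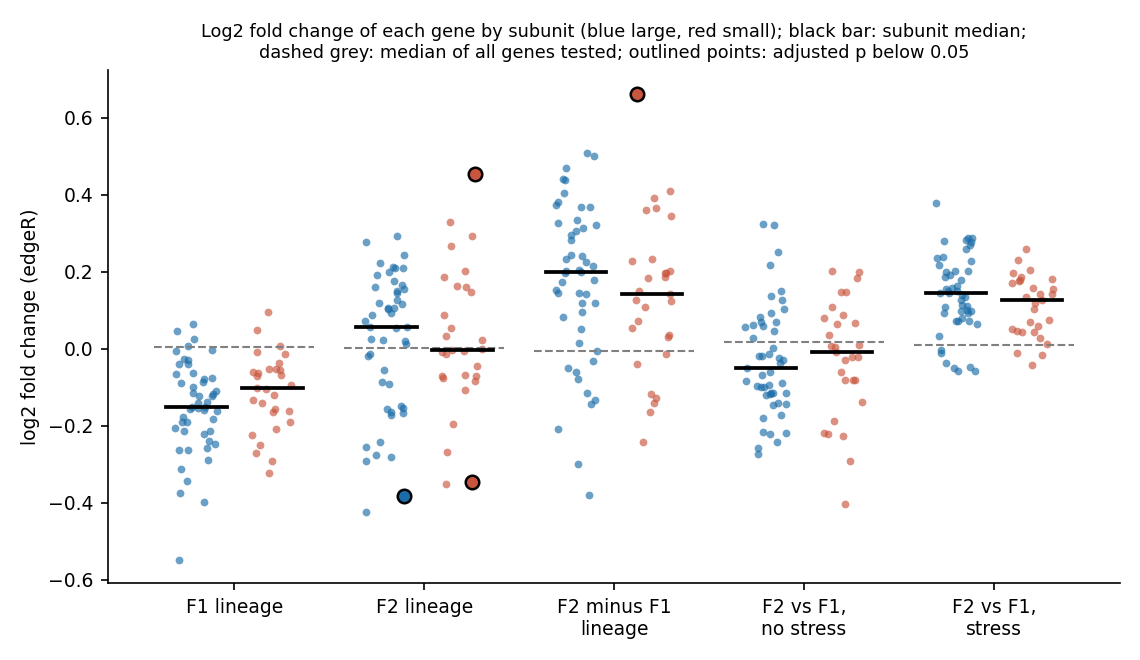
Log2 fold change of each of the 78 genes in the 5 comparisons, large subunit in blue and small subunit in red; black bars are subunit medians, dashed grey lines the median of all genes tested, and outlined points passed at an adjusted p under 0.05. Both subunits sit below the grey line in F1 and above it in the interaction and in F2 against F1 of the stress lineage, and 4 points are outlined.

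Between generations, none of the 78 genes passed the test in either lineage. These comparisons share the same 20 mice with those above, so their values are not independent of them. In the no-stress lineage F2 minus F1 gave no call among the 78 genes with edgeR, beside 2% of all genes (1.47% higher and 0.532% lower) and 0.00599% with the offset, with 11 of the 78 and 3386 of the 16727 at an unadjusted p under 0.05. DESeq2 called 1 (beside 1013 of all genes) and limma-voom with library weights 1 (beside 1003), both lower, and both calls were Mrps18c. The median was −0.050 in the large and −0.0090 in the small subunit and 0.017 over all genes. Mrpl15, a large subunit protein with a bacterial counterpart, was wholly lower in F2 (23.4 ± 1.44 and 19.5 ± 2.34 CPM, SD, n = 5), beside 1.99% of all genes, and none of the 78 was wholly higher, beside 2.53%.

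In the stress lineage F2 minus F1 was positive for 68 of the 78 genes, 42 of 49 in the large and 26 of 29 in the small subunit. The median was 0.14 in the large and 0.13 in the small subunit and 0.0089 over all genes. None was called with edgeR, beside 0.012% of all genes and 0.0359% with the offset, and 18 of the 78, all higher, and 1169 of the 16727 had an unadjusted p under 0.05. DESeq2 and limma-voom also called none of the 78. Mrpl13 was the only gene wholly higher in F2, beside 0.436% of all genes, with 17.9, 17.6, 17.3, 16.3 and 19.2 CPM in F1 stress and 24.5, 20.6, 19.7, 19.9 and 20.8 CPM in F2 stress mice. Its log2 fold change was 0.26 (SE 0.10, adjusted p = 0.643 with edgeR), and none of the 78 was wholly lower, beside 0.341%. All 8 striatal markers were positive here too (median 0.32).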

How the data were processed

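Poly-A RNA libraries (TruSeq Stranded mRNA) of 20 mice were aligned by the authors with STAR 2.5.3a to GRCm38, per the submitters' processing notes. The deposited values are whole-number counts per Ensembl gene; the counting tool, annotation and strand setting: not given in the sources used here. Column totals lie between 13654890 and 13714805, and the depth before the totals were made alike, and so the precision of each library, is not known.

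Counts were fitted with edgeR 4.0.16 (R 4.3.3): TMM factors, filterByExpr, 1 mean per group over all 20 libraries, robust quasi-likelihood F tests, Benjamini-Hochberg over 16727 genes, called at an adjusted p under 0.05. The labels state biological replicates. Lists have counts and medians only. Log2 CPM used a prior count of 2. DESeq2 1.42.0, limma 3.58.1, sva 3.50.0, other scalings, filters and an offset for GC content and length (splines with 5 degrees of freedom, 16692 genes with a gene model) were alternatives, besides leaving out each library. No pair of libraries within a group agreed within sampling noise (chi-square per gene of at least 6.52). Functions were tested on simulated data. Lengths, GC content and overlaps came from GENCODE on GRCm38. Named genes were those called, the 3 smallest p per subunit in the F1, F2 and interaction comparisons, the 3 highest and 3 lowest per length per subunit, and Mrps18a, Mrps30 and Mrps36; from other lists, up to 4 called genes or the one with the smallest p. The genes and lists were chosen with earlier results of these data known. One result from the other lists is not reported here.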

Additional observations from a re-analysis of the deposited data

Results flagged for a closer look

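Of 116 groups of 5 mice examined for the named genes and the subunit means, 5 had 1 library far from the other 4 (gap over range above Dixon's 0.71), where chance flags about 1 in 20, or 5.8. They were Mrpl13 in F2 stress replicate 11 (24.5 CPM against 19.7 to 20.8 in the others), Mrpl3 in F2 no-stress replicate 20 (65.7 against 56.0 to 57.3), Mrpl33 in F2 stress replicate 15 (20.3 against 15.6 to 16.5), Mrpl49 in F1 stress replicate 5 (36.5 against 25.3 to 28.5) and Mrps33 in F1 no-stress replicate 6 (28.8 against 40.9 to 42.5). Mrps33 is the gene with a nearly identical pseudogene, Gm5776.

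The lineage difference of Mrps18c differed between F2 and F1 by 0.66 on the log2 scale in the test of the interaction (SE 0.17, adjusted p = 0.0439 with edgeR). Its range over the alternatives was 0.53 to 0.76, with adjusted p from 0.00422 to 0.169.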

How the results depend on the processing

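No paired analysis was possible because every mouse has its own replicate number. The F1 count of called genes was 0 under all 13 alternatives and 20 leave-outs. Without 1 library, the F2 median ran from 0.034 to 0.10 in the large subunit and from −0.044 to 0.044 in the small subunit, lowest without F2 stress replicate 11 and highest without F2 no-stress replicate 18, so the small subunit median had no stable sign. The interaction median ran from 0.15 to 0.22 (large) and from 0.094 to 0.17 (small, lowest without F1 stress replicate 4). For F2 against F1 it ran from −0.085 to −0.027 (large) and −0.033 to 0.016 (small) in the no-stress lineage, and from 0.11 to 0.18 and 0.063 to 0.16 in the stress lineage, lowest without F2 stress replicate 11. In F2, the 3 calls became 7 at an adjusted p under 0.1, 6 with library weights in limma-voom, and 0 with the offset for GC content and length or with only the groups compared; Mrpl4 turned from −0.38 to 0.012 with the offset. Leaving out 1 library gave 0 to 6 calls in F2, 0 to 7 in the interaction and 0 to 1 in F2 against F1 of the no-stress lineage. The interaction's 1 call became 7 at an adjusted p under 0.1, 7 with DESeq2, 12 with library weights, and 0 without a low-count filter or with the offset; over all genes these were 421, then 1359, 1211, 2449, 100 and 0. The comparison of F2 with F1 in the no-stress lineage went from 0 to 2 calls at an adjusted p under 0.1, 1 with DESeq2 and 1 with library weights. Over all genes these were 335, then 1057, 1013 and 1003. Over all genes, F2 calls were 1324, then 2502 at an adjusted p under 0.1, 2019 with DESeq2 and 2581 with library weights. They were 737 without a filter, 8 with the offset and 0 with only the groups compared. The cause of these changes was not tested.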
